A study of Mus musculus with 15 samples.

Results

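Cytochrome P450 genes of families 1 to 4 were followed in primary mouse hepatocytes in which the endoplasmic reticulum stress sensor IRE1a had been overexpressed or knocked down. The members are the genes whose symbol starts with Cyp1, Cyp2, Cyp3 or Cyp4 followed by a letter and which have a probe set that names no other gene. Pseudogene symbols were left out, and a gene with more than 1 probe set is represented by the brightest over all 15 arrays. The rule gave 55 of 18193 genes, and 48 of them were tested among 16294 genes. It used gene symbols and mean brightness alone, not differences between groups, although the members were chosen with earlier results of these data known.

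The cells were hepatocytes from C57BL/6 mice, kept in HepatoZYME-SFM, a serum-free hepatocyte medium, and every group, controls included, carried an adenovirus. At 48 hours 3 groups were collected: cells with wild-type IRE1a (WT IRE1a), cells with IRE1a carrying S724A, a change of serine to alanine (S724A IRE1a), and cells with EGFP, a green fluorescent protein, as control. The other groups carried their virus for 72 hours and then received glucagon, the fasting hormone that drives hepatic glucose output, for 4 hours: one had a short hairpin RNA against IRE1a (shIRE1a), the other a control hairpin (shCON). Each group had 3 arrays (Affymetrix Mouse Genome 430 2.0), and the labels number them 1 to 3. The labels do not say which arrays came from the same preparation, although the series text speaks of 3 independent experiments, so p-values measure the spread between these samples. Hairpin cells without glucagon and uninfected cells are not analysed here.

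Cytochromes P450 are haem enzymes of the endoplasmic reticulum membrane that insert an oxygen atom into their substrates with electrons passed on by P450 reductase or cytochrome b5. Families 1 to 3 carry most of the liver's drug and toxicant oxidation, and family 4 hydroxylates fatty acids and eicosanoids. Many of their genes are switched by ligand-activated receptors (AHR, CAR, PXR, PPARA) and by liver factors such as HNF4A, several are restricted to a zone of the liver lobule, and their levels drop when hepatocytes are taken into culture. IRE1a is a kinase and endoribonuclease in the same membrane that splices Xbp1 mRNA and degrades other mRNAs when misfolded proteins build up.

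With the overexpressing viruses, every P450 change that passed the test was a decrease. Cyp2e1, Cyp1a2, Cyp2f2, Cyp2c29 and Cyp2c68 passed with both viruses when the arrays of 1 number were compared with each other. Their promoters are shown to place these genes in the genome and to give the sequence just upstream of where transcription of each starts. They are the 250 bases before the transcription start, read 5′ to 3′ on the gene's own strand, from RefSeq's annotation of mouse build GRCm38.p6. The windows lie at chr7:140763569-140763818 on the plus strand, chr9:57683656-57683905 on the minus strand, chr7:27119705-27119954 on the plus strand, chr19:39286835-39287084 on the plus strand and chr19:39741102-39741351 on the minus strand. Capitals mark matches to the motifs searched.
Cyp2e1: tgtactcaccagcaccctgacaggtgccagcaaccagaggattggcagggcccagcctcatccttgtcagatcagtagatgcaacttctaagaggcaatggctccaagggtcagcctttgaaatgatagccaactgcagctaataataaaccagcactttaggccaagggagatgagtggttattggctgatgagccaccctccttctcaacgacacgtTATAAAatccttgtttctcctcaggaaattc
Cyp1a2: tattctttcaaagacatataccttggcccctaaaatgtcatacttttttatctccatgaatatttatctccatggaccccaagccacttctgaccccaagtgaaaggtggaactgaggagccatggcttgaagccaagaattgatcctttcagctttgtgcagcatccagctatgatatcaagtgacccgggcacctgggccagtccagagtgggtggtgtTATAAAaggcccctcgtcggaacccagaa
Cyp2f2: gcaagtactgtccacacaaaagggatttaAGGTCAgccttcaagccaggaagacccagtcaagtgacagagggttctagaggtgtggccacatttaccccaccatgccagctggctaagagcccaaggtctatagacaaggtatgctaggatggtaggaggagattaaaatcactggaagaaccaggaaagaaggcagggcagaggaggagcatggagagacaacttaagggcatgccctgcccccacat
Cyp2c29: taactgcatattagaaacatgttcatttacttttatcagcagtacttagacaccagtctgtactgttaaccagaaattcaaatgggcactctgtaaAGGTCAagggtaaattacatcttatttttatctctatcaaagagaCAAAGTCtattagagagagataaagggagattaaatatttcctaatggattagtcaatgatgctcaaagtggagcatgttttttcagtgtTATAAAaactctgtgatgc
Cyp2c68: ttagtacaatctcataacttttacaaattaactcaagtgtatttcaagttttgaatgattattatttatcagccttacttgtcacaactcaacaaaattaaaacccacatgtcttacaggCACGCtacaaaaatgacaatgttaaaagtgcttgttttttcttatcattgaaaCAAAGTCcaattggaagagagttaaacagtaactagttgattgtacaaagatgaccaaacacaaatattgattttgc

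The 5 motifs were chosen after sequences of these genes had been seen, and a match is a description of letters, not a site of binding. They were TATAAA (the TATA box, gene strand only) and, on both strands, CAAAGTC (the core of an HNF4 site), AGGTCA (a nuclear receptor motif), GCGTG (the AHR core) and CCACG (part of an endoplasmic reticulum stress element). GCGTG and CCACG can share letters on opposite strands. In windows of 250 bases, TATAAA stood in 8.12% of all 27025 promoters of the reference table and in 11 of the 43 members with a promoter there (25.6%). CAAAGTC stood in 3.80% of all promoters and in 11 of 43 members, AGGTCA in 13.8% and in 11 of 43, GCGTG in 28.2% and in 10 of 43, and CCACG in 28.2% and in 9 of 43. Among the printed promoters, Cyp2e1, Cyp1a2 and Cyp2c29 hold TATAAA, beginning 31, 29 and 19 bases before the start. Cyp2c29 and Cyp2c68 hold CAAAGTC, Cyp2f2 and Cyp2c29 hold AGGTCA, Cyp2c68 holds GCGTG on the opposite strand, where it reads CACGC, and none of them holds CCACG.

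Median log2 signals of the arrays ran from 5.69 to 5.83. Ern1, the gene of IRE1a, had signals of 7.60, 7.44 and 7.51 in shIRE1a cells, against 8.89, 8.96 and 9.10 in shCON cells, a 2.76-fold decrease (log2 change -1.47 ± 0.19 SE, limma adjusted p = 0.00293). With the overexpressing viruses the same probe set gave log2 changes of 0.12 (WT IRE1a minus EGFP, adjusted p = 0.775) and 0.46 (S724A IRE1a minus EGFP, adjusted p = 0.159), so this probe set gave no check of the overexpression. No other Ern1 probe set had all WT IRE1a arrays above all EGFP arrays. The next brightest had 6.22, 6.52 and 6.06 in shIRE1a cells, against 6.81, 6.75 and 6.96 in shCON cells. The dimmest was not lower in shIRE1a cells (3.93, 4.45 and 3.66, against 3.65, 3.68 and 3.66), and the others were. The 7 hepatocyte markers other than P450 genes (Alb, Apoa1, Ttr, Cps1, Hnf4a, Tat and Tdo2) averaged 11.9 to 12.4 on every array, while the lists of macrophage, endothelial, stellate, bile duct, white blood cell and erythroid markers averaged 4.51 to 6.37. The macrophage average hides the bright markers Cd68 (10.96 to 12.13 over all arrays) and Cd14 (10.86 to 12.49). Since these are bulk samples, fewer cells of a type and less RNA per cell cannot be told apart.

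All 48 tested members had a signal of 4 or more on all 15 arrays. The 7 members left out (Cyp2b19, Cyp2c65, Cyp2d12, Cyp2d34, Cyp2j13, Cyp3a16 and Cyp4x1) had signals of 2.31 to 4.08, at the dim end of the array. P450 genes of a subfamily resemble each other, and how far a probe set reads its neighbours' transcripts was not tested.

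The first question was which P450 genes changed when IRE1a was overexpressed. With WT IRE1a, 2 of 48 members fell and 0 rose in the fit that treats the arrays as unpaired, where 2.59% of all genes fell and 5.08% rose. With S724A IRE1a, again 2 fell and 0 rose, against 2.25% and 3.87% of all genes. Arrays of 1 number within an arm moved together across all genes, and with the number as a replicate block 8 members fell with WT IRE1a (16.7%, against 4.99% of all genes) and 7 fell with S724A IRE1a (14.6%, against 5.52% of all genes). No member rose with the block, where 10.6% and 8.89% of all genes rose. The 2 comparisons share the EGFP arrays, so their results are not independent of each other.

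Cyp2e1, which oxidises ethanol, paracetamol and small solvents, fell most. Its log2 signal was 10.76, 10.13 and 9.84 with WT IRE1a, 11.20, 10.67 and 10.38 with S724A IRE1a, and 12.54, 12.36 and 12.64 with EGFP. Every array of both IRE1a groups lay below every EGFP array, by more than 1 log2 unit. The signal with WT IRE1a was 4.84-fold lower than with EGFP (log2 change -2.27 ± 0.43 SE, adjusted p = 0.00421), and with S724A IRE1a it was 3.40-fold lower (-1.76 ± 0.43, adjusted p = 0.0256). With the replicate block the adjusted p-values were 4.44e-06 and 3.34e-05. With S724A IRE1a the unpaired call did not survive leaving out any 1 of 5 arrays (all but S724A IRE1a number 1), with adjusted p-values up to 0.0998, nor a floor at a signal of 4 (0.0633) or trended and robust variances (0.0513).

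Cyp1a2, which demethylates caffeine and activates aromatic amines, had signals of 6.02, 6.09 and 6.49 with WT IRE1a, 6.64, 6.59 and 6.31 with S724A IRE1a, and 7.70, 7.41 and 8.18 with EGFP. Both IRE1a groups again lay wholly below EGFP. It fell 2.96-fold with WT IRE1a (log2 change -1.56 ± 0.17 SE with the replicate block, adjusted p = 8.64e-05) and 2.38-fold with S724A IRE1a (-1.25 ± 0.17, adjusted p = 0.000554). Without the block neither change passed (adjusted p = 0.0686 and 0.139). Cyp1a1, the classic AHR target of the same subfamily, had 6.49, 6.58 and 9.47 with WT IRE1a, 6.83, 6.61 and 7.24 with S724A IRE1a, and 6.62, 6.96 and 7.81 with EGFP. The 3 groups overlapped, and array number 3 was the highest in each of them.

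Cyp2f2, which activates naphthalene and styrene in mice, had signals of 8.89, 8.67 and 8.45 with WT IRE1a, 9.31, 9.23 and 8.67 with S724A IRE1a, and 9.83, 9.72 and 9.98 with EGFP. No IRE1a array reached the EGFP range. Cyp2f2 fell 2.25-fold with WT IRE1a (log2 change -1.17, adjusted p = 0.000221 with the replicate block, 0.106 without) and 1.71-fold with S724A IRE1a (-0.78, adjusted p = 0.00436 with the block, 0.269 without). As for Cyp1a2, both changes passed without the block when the 6 arrays of the comparison were fitted alone. Cyp2f2 is known as a periportal gene in mouse liver and Cyp2e1 and Cyp1a2 as pericentral ones, so the genes that fell are known from both ends of the lobule. Of 7 pericentral members on the list used here, 6 were lower with WT IRE1a and 7 with S724A IRE1a. Among all genes 49.5% and 51.8% were lower, and among all tested members 66.7% and 75%. The periportal list held 1 member, so the zones were not compared.

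**Figure D1:**
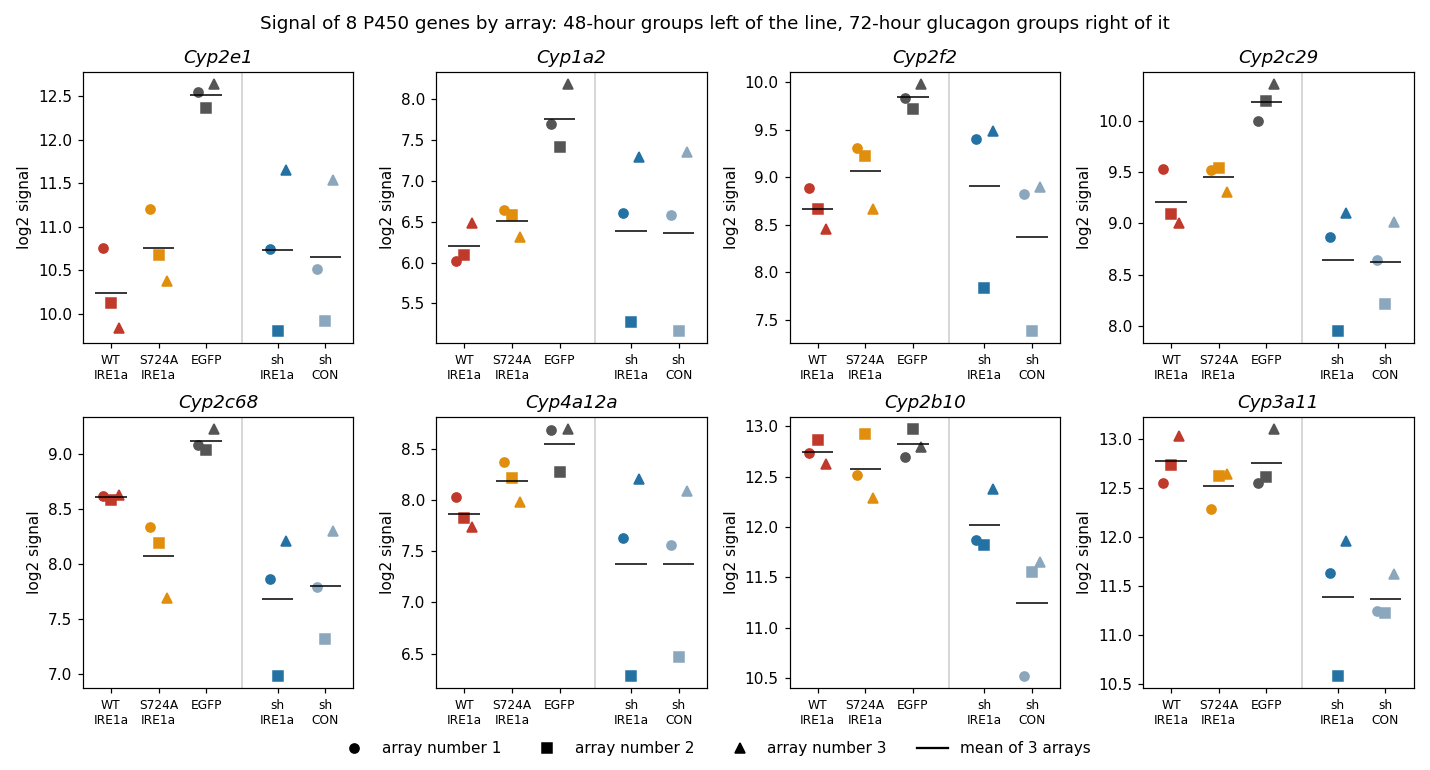
Log2 signal (vertical axis, a separate scale in each panel) of 8 P450 genes on every array, by group, with the 48-hour groups left of the grey line and the 72-hour glucagon groups right of it; marker shapes give the array number and bars the mean of 3 arrays. For Cyp2e1, Cyp1a2, Cyp2f2, Cyp2c29 and Cyp2c68 all IRE1a arrays lie below all EGFP arrays, and in the hairpin groups array number 2 is lowest and number 3 highest for each of these 5 genes.

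The Cyp2c subfamily, many of whose members epoxidise or hydroxylate arachidonic acid or hydroxylate drugs, had 10 tested members. Of these, 9 were lower with WT IRE1a and all 10 with S724A IRE1a, with median log2 changes of -0.31 and -0.27. Cyp2c29, an arachidonic acid epoxygenase that CAR induces, had 9.53, 9.09 and 9.005 with WT IRE1a, 9.52, 9.55 and 9.31 with S724A IRE1a, and 10.001, 10.20 and 10.36 with EGFP. All IRE1a arrays were below all EGFP arrays. It fell 1.97-fold with WT IRE1a (log2 change -0.98 ± 0.26 SE, adjusted p = 0.0326), a call that was lost without any 1 of 4 arrays (WT IRE1a numbers 2 and 3, EGFP numbers 2 and 3; adjusted p = 0.0932 to 0.12) and with a floor at a signal of 4 (0.0748). The decrease with S724A IRE1a was 1.66-fold and passed with the replicate block (adjusted p = 0.0095), not without it (0.108). With array number 2 or number 3 left out, the blocked call was lost too.

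Cyp2c68, a member of the same gene cluster, had 8.62, 8.58 and 8.63 with WT IRE1a, 8.34, 8.19 and 7.69 with S724A IRE1a, and 9.08, 9.04 and 9.22 with EGFP. The 3 groups did not overlap, with S724A IRE1a lowest. The decrease was 2.06-fold with S724A IRE1a (log2 change -1.04 ± 0.28 SE, adjusted p = 0.039) and 1.42-fold with WT IRE1a (-0.51, adjusted p = 0.0347 with the replicate block, 0.316 without). The unpaired S724A IRE1a call was lost when any 1 of the 6 arrays was left out, with a floor at a signal of 4 and with median centring (adjusted p = 0.0521), and the blocked WT IRE1a call when any 1 array number was.

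Of the other Cyp2c genes, Cyp2c23 and Cyp2c37, both known to metabolise arachidonic acid, fell with WT IRE1a with the replicate block and not without it (log2 changes -0.50 and -0.48, adjusted p = 0.014 and 0.04, against 0.407 and 0.498). Cyp2c23 averaged 8.19 ± 0.13 with WT IRE1a and 8.69 ± 0.03 with EGFP, and Cyp2c37 averaged 7.12 ± 0.25 with WT IRE1a and 7.60 ± 0.37 with EGFP (SD, n = 3 arrays each). Cyp2c38, an epoxygenase, fell with S724A IRE1a in the blocked fit (-0.38, adjusted p = 0.0357, against 0.0587 unpaired). Each of these 3 calls was lost when any 1 array number was left out.

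Outside the Cyp2c subfamily, Cyp4a12a, which hydroxylates arachidonic acid to 20-HETE in mice, had 8.03, 7.83 and 7.74 with WT IRE1a, 8.37, 8.22 and 7.98 with S724A IRE1a, and 8.69, 8.27 and 8.69 with EGFP. The WT IRE1a arrays lay below the EGFP arrays, and the S724A IRE1a arrays overlapped them. It fell with WT IRE1a (log2 change -0.68, adjusted p = 0.0028 with the replicate block, 0.377 without). With S724A IRE1a its change was -0.36 (adjusted p = 0.0682 with the block). Cyp2b9, a female-biased gene in mouse liver, fell with S724A IRE1a with the block and not without it (-0.32, adjusted p = 0.0475, against 0.138), a call lost without any 1 array number.

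**Figure D2:**
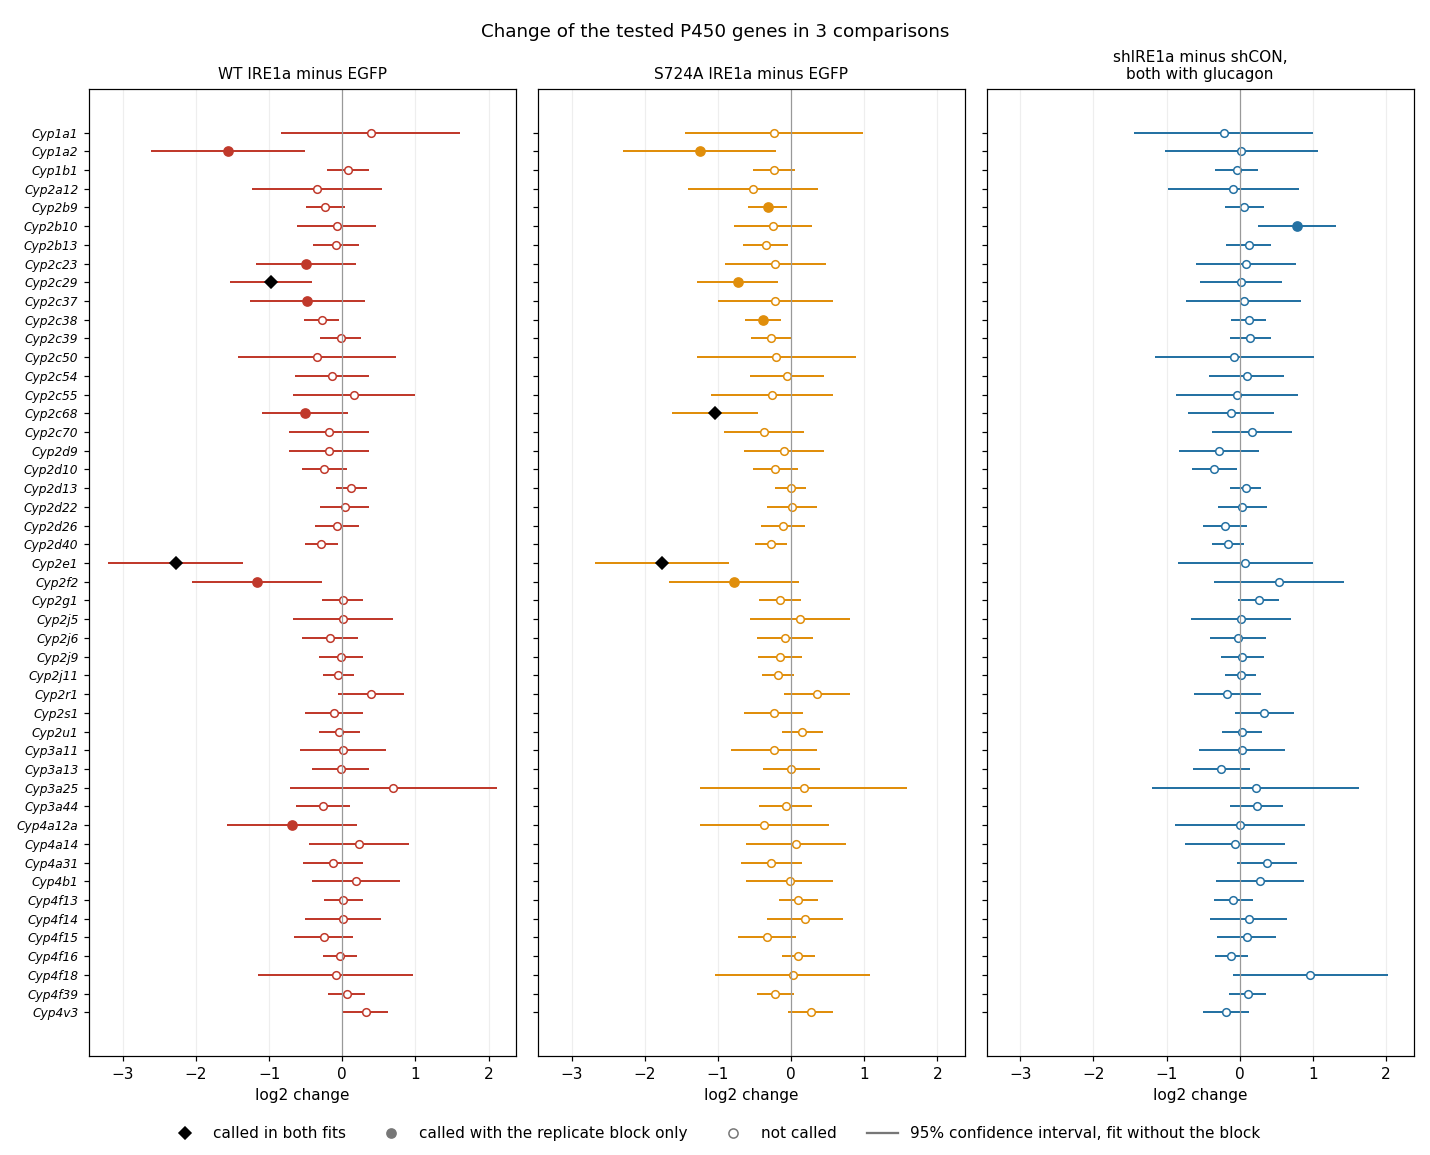
Log2 change (horizontal axis) of each of the 48 tested P450 genes for WT IRE1a minus EGFP, S724A IRE1a minus EGFP and shIRE1a minus shCON, with 95% confidence intervals from the fit without the replicate block. Black diamonds passed in both fits, filled circles with the block alone and open circles in neither; the filled points of both IRE1a panels lie left of 0, with Cyp2e1 farthest at -2.27 and -1.76.

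Same-number differences gave the size of these decreases by array number. For Cyp2e1 they were -1.79, -2.23 and -2.80 with WT IRE1a minus EGFP and -1.34, -1.69 and -2.26 with S724A IRE1a minus EGFP. For Cyp1a2 they were -1.68, -1.32 and -1.70 with WT IRE1a and -1.05, -0.82 and -1.88 with S724A IRE1a. For Cyp2f2 they were -0.94, -1.05 and -1.53 with WT IRE1a and -0.52, -0.49 and -1.31 with S724A IRE1a. All 18 of these differences were below 0, as they must be where the groups do not overlap. Array number 3 gave the largest decrease of each set. With any 1 array number left out of the blocked fit, Cyp1a2, Cyp2c29, Cyp2e1, Cyp2f2 and Cyp4a12a still fell with WT IRE1a, and Cyp1a2, Cyp2c68, Cyp2e1 and Cyp2f2 still fell with S724A IRE1a.

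**Figure D3:**
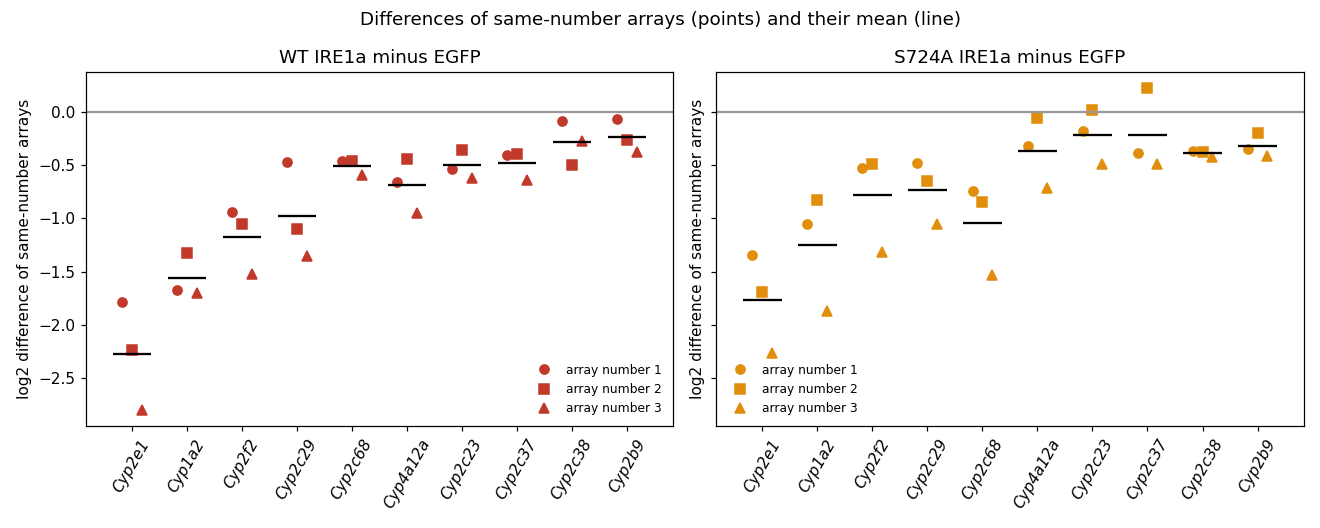
Log2 difference between arrays of the same number (vertical axis) for the 10 P450 genes that fell with at least 1 IRE1a virus in the blocked fit, for WT IRE1a minus EGFP and S724A IRE1a minus EGFP; marker shapes give the array number and bars the mean. All points of WT IRE1a minus EGFP lie below 0, and with S724A IRE1a only Cyp2c23 and Cyp2c37 have a point above 0, each from array number 2 (0.02 and 0.23). The genes were chosen by the fit that uses these differences, so points below 0 add no separate evidence of a decrease.

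Over all 48 tested members the median log2 change was -0.08 with WT IRE1a and -0.21 with S724A IRE1a, where the medians of all genes were 0.00 and -0.01. Members were lower in 32 of 48 cases with WT IRE1a and in 36 of 48 with S724A IRE1a. With S724A IRE1a, 12 of 14 tested members with a mean signal under 6 were lower (median log2 change -0.22). So were 13 of 18 with a mean of 8 or more (-0.21) and 11 of 16 between (-0.07). Markers of other cells were lower with S724A IRE1a in 7 of 8 endothelial, 6 of 7 stellate, 6 of 8 lymphocyte and neutrophil, and 5 of 9 macrophage genes. The part of signal level in the members' counts was not tested. The arrays of the IRE1a and EGFP groups were wholly apart for 12 members with WT IRE1a (25.0%, against 26.7% of all genes) and for 16 with S724A IRE1a (33.3%, against 33.4%), shares close to those of all genes. Of these, 11 and 14 were lower, and the direction was not counted for all genes that were wholly apart. The exceptions were Cyp4v3, a fatty acid hydroxylase, higher with both viruses (log2 changes 0.32 and 0.27, adjusted p = 0.212 and 0.272), and Cyp4f16 with S724A IRE1a. At an unadjusted p of 0.05, 7 members passed with WT IRE1a (14.6%, against 21.4% of all genes) and 8 with S724A IRE1a (16.7%, against 24%).

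For 37 members neither the unpaired nor the blocked fit over all 15 arrays made a call in any comparison. Their log2 changes ran between -0.35 and 0.70 with WT IRE1a and between -0.52 and 0.35 with S724A IRE1a, and for 32 and 31 of them the 95% confidence interval lay within 1 log2 unit of 0. Cyp3a11, the main drug-oxidising Cyp3a gene of mouse liver and a PXR target, had 12.55, 12.73 and 13.03 with WT IRE1a, 12.29, 12.62 and 12.64 with S724A IRE1a, and 12.55, 12.61 and 13.10 with EGFP. These groups overlapped, and the changes were 0.01 (95% confidence interval -0.57 to 0.60) and -0.24 (-0.83 to 0.35). Cyp2b10, the CAR target, is not among the 37, since the blocked fit called it between the hairpins. It also overlapped between the 48-hour groups, with means of 12.74 ± 0.12, 12.57 ± 0.32 and 12.82 ± 0.14 (WT IRE1a, S724A IRE1a and EGFP, SD, n = 3 arrays each). Cyp2r1, a vitamin D 25-hydroxylase, had changes of 0.39 and 0.35 that did not pass (adjusted p = 0.315 and 0.328), and the family 4 genes Cyp4a14, a PPARA target, Cyp4b1 and Cyp4f14 had changes between -0.02 and 0.23.

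The second question was whether WT and S724A IRE1a differed. No member passed, with or without the block, where 0% of all genes rose or fell without it and 0% rose and 0.0123% fell with it. At an unadjusted p of 0.05, 2 members passed (Cyp1b1 and Cyp4f39, 4.17%, against 6.12% of all genes). The groups were wholly apart for 6 of 48 members (12.5%, against 13.3% of all genes). Cyp2e1 was 0.51 log2 units lower with WT than with S724A IRE1a, with an interval of -1.43 to 0.41, and the same-number differences were -0.44, -0.55 and -0.54. Cyp2c68 went the other way: WT IRE1a arrays were all above S724A IRE1a arrays (log2 change 0.53, interval -0.06 to 1.12, adjusted p = 0.847).

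The third question was whether IRE1a knockdown under glucagon changed the P450 genes. Without the block no member passed, where 0.0491% of all genes rose and 0.184% fell. At an unadjusted p of 0.05, 2 members passed (Cyp2b10 and Cyp2d10, 4.17%, against 7.73% of all genes). With the block 1 member rose and 0 fell, where 0.534% of all genes rose and 0.694% fell. The hairpin groups were wholly apart for 3 of 48 members (6.25%, against 11.5% of all genes): Cyp2b10 and Cyp4a31 were higher and Cyp2d40 lower in shIRE1a cells. The median log2 change of the members was 0.03, against 0.02 for all genes.

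Cyp2b10 had signals of 11.87, 11.82 and 12.37 in shIRE1a cells, against 10.52, 11.55 and 11.65 in shCON cells. Every shIRE1a array was above every shCON array, and shCON number 1 was the lowest. The difference was 1.72-fold (log2 change 0.78, adjusted p = 0.0474 with the replicate block, 0.411 without), and the same-number differences were 1.35, 0.27 and 0.73. The 3 probe sets of Cyp2b10 gave changes of 0.69, 0.78 and 0.78. The blocked call was lost without array number 1 or without number 3. Cyp4f18, which hydroxylates leukotriene B4 in mouse neutrophils, had 7.99, 5.76 and 8.11 in shIRE1a cells, against 5.92, 5.77 and 7.28 in shCON cells. The groups overlapped, and the change of 0.96 ± 0.50 did not pass (adjusted p = 0.665, 0.138 with the block). It passed in the blocked fit without array number 2. A dimmer Cyp4f18 probe set, with means of 4.14 in shIRE1a cells and 4.10 in shCON cells, gave a change of 0.04. Markers of lymphocytes and neutrophils averaged 4.66 to 4.93 on shIRE1a arrays and 4.51 to 4.71 on shCON arrays over 9 of 12 listed genes on the array, and macrophage markers averaged 6.14 to 6.33 on shIRE1a arrays and 6.07 to 6.14 on shCON arrays over 11 of 11. Their part in the difference of Cyp4f18 was not tested.

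None of the genes that fell with IRE1a overexpression passed the test after knockdown. Cyp2e1 had 10.74, 9.80 and 11.65 in shIRE1a cells, against 10.52, 9.92 and 11.53 in shCON cells (log2 change 0.07, 95% confidence interval -0.85 to 1.00). Cyp1a2 had 6.60, 5.27 and 7.29 in shIRE1a cells, against 6.59, 5.16 and 7.35 in shCON cells (0.02, -1.03 to 1.08). In both genes the spread between numbers was wider than the difference between groups. Their confidence intervals use an error pooled over all 5 groups, not the hairpin arrays alone, and leave out the array number. Cyp1a2 had SDs over 3 arrays of 1.03 (shIRE1a) and 1.11 (shCON), against 0.25 (WT IRE1a), 0.18 (S724A IRE1a) and 0.39 (EGFP). Cyp2e1 had 0.92 and 0.81, against 0.47, 0.42 and 0.14, in the same order. Same-number differences of shIRE1a minus shCON were 0.23, -0.12 and 0.12 for Cyp2e1, and 0.02, 0.11 and -0.06 for Cyp1a2. Cyp2f2 was higher in shIRE1a cells in all 3 same-number pairs, by 0.58, 0.45 and 0.59, but its change did not pass (0.54, adjusted p = 0.0993 with the block, 0.759 without). Cyp2c29 and Cyp2c68 had changes of 0.02 and -0.12.

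In the hairpin arm the P450 genes varied strongly by array number. Number 2 was the lowest array of both groups for 18 of 48 members (37.5%, against 15.4% of all genes), and number 3 was the highest of both for 18 (37.5%, against 17.1%). Cyp2c50, a Cyp2c gene known from the pericentral zone, had 7.94, 5.82 and 8.33 in shIRE1a cells, against 7.71, 6.45 and 8.15 in shCON cells. Number 2 was thus more than 1 log2 unit below the other numbers in each group. The same order held for Cyp2e1, Cyp1a2, Cyp2f2, Cyp2c23, Cyp2c37, Cyp4a12a and Cyp2j5, an epoxygenase. The hepatocyte markers named above averaged 12.25, 12.02 and 12.20 in shIRE1a cells and 12.22, 12.20 and 11.94 in shCON cells, with number 2 lowest in shIRE1a cells and number 3 lowest in shCON cells. Which difference between the arrays goes with the number was not tested.

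The 48-hour arm also showed differences by array number. Number 3 was the highest array of all 3 groups for 11 of 48 members (22.9%, against 11.4% of all genes). Of these 11, 5 were among the 18 members for which number 3 was highest at 72 hours: Cyp1a1, Cyp2c37, Cyp2c55, Cyp2d9 and Cyp3a11. Those 18 make up 37.5% of the 48 members, so 5 of 11 does not tie the numbers of the arms together. Between arms, the members' deviations from their group means correlated at -0.32 to 0.35 for same-number arrays. Cyp3a25, a Cyp3a gene, had 8.87, 8.72 and 10.89 with WT IRE1a, 8.26, 8.70 and 9.95 with S724A IRE1a, and 8.12, 8.11 and 10.17 with EGFP, and it had the widest spread within groups of all members (pooled SD 0.96). Number 3 stood at least 1 log2 unit above both other numbers in each 48-hour group. Cyp1a1 (0.83), Cyp2c50 (0.73), Cyp4f18 (0.72) and Cyp1a2 (0.71) had the next widest spreads. Within an arm, the members' deviations from their group means correlated between same-number arrays at 0.34 to 0.80 over the 48 genes, a description of arrays that share a number. Arrays of different numbers within an arm correlated at -0.72 to 0.36. Their highest pair, shCON number 3 with shIRE1a number 1, was above the same-number pair of shCON and shIRE1a number 1 (0.34).

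**Figure D4:**
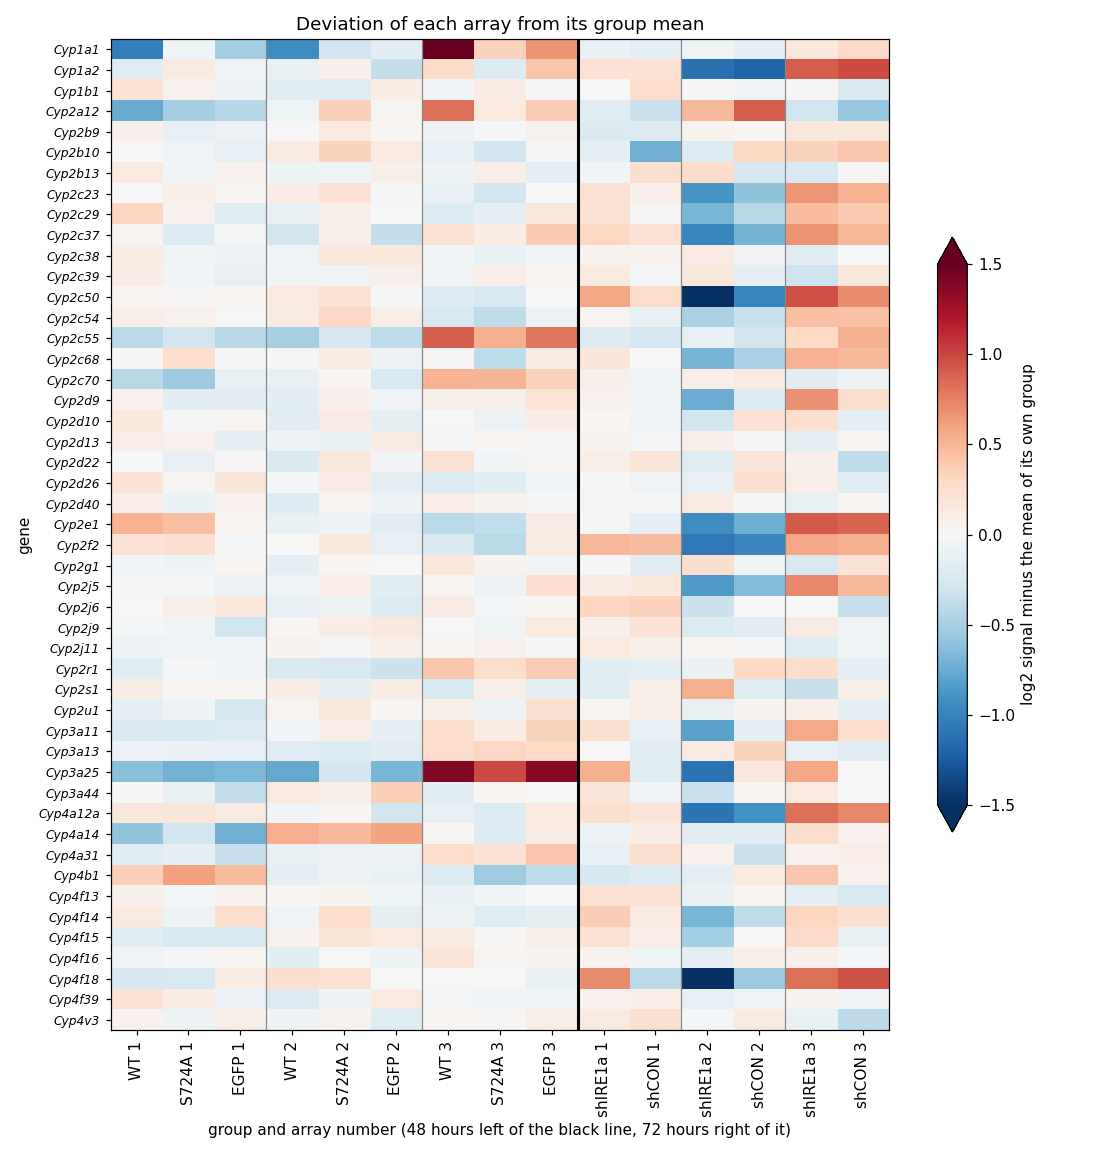
Log2 signal of each array minus the mean of its own group (colour, saturating at 1.5 log2 units either way) for the 48 tested P450 genes (rows) and 15 arrays (columns, ordered by array number within the 48-hour arm, left of the black line, and the 72-hour arm, right of it). Arrays of 1 number share their colours within an arm: Cyp3a25, Cyp1a1 and Cyp2c55 are red in the 48-hour arrays numbered 3, and Cyp2e1, Cyp1a2, Cyp2f2 and Cyp2c50 are blue in the 72-hour arrays numbered 2.

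The 72-hour glucagon arrays and the 48-hour arrays differ in virus, time and glucagon, which cannot be told apart, so their levels are given without a test. All 6 arrays of 72 hours lay below all 9 arrays of 48 hours for 9 of 48 members (18.8%, against 2.88% of all genes): Cyp2c37, Cyp2c50, Cyp2c54, Cyp2d9, Cyp2d10, Cyp2d26, Cyp2j5, Cyp3a11 and Cyp4f14. They lay wholly above for 1 member (2.08%, against 3.70% of all genes), Cyp4f18. For Cyp3a11 the 72-hour arrays ran from 10.58 to 11.95 and the 48-hour arrays from 12.29 to 13.10. For Cyp2c37 they ran from 4.49 to 6.15 at 72 hours and from 6.85 to 7.99 at 48 hours.

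Genes that serve or control the P450 enzymes were counted from lists chosen for this purpose, against 5.08% of all genes that rose and 2.59% that fell with WT IRE1a and 3.87% and 2.25% with S724A IRE1a (with the block, 10.6% and 4.99%, and 8.89% and 5.52%). Of 11 listed redox partners and membrane companions 9 were tested, and P450 reductase was not among them. Of these 9, 1 rose with each IRE1a virus and 0 fell: Fdx1, the ferredoxin that feeds electrons to mitochondrial P450 enzymes. Its signals were 12.51, 12.54 and 12.57 with WT IRE1a, 12.28, 12.38 and 12.29 with S724A IRE1a, and 11.71, 11.66 and 11.75 with EGFP. The 3 groups did not overlap (log2 changes 0.83 ± 0.09 and 0.61 ± 0.09 SE, adjusted p = 5.7e-05 and 0.000922). With the replicate block Cyb5r1, a cytochrome b5 reductase, also fell with WT IRE1a (-0.54, adjusted p = 0.00163, against 0.105 without it). Of 16 tested genes of haem synthesis, supply and breakdown, 1 rose (Fech, ferrochelatase, 0.49, adjusted p = 0.0123) and 1 fell with WT IRE1a, and 0 rose and 1 fell with S724A IRE1a. The gene that fell was in both cases Blvra, which reduces biliverdin, a product of haem breakdown. It had 8.31, 7.96 and 8.15 with WT IRE1a, 7.82, 7.59 and 7.62 with S724A IRE1a, and 9.55, 9.42 and 9.61 with EGFP (changes -1.39 and -1.85, adjusted p = 3.17e-06 and 1.87e-07). With the block 3 haem genes rose and 2 fell with WT IRE1a, and 2 rose and 1 fell with S724A IRE1a. The additional risers were Ppox, the oxidase of the step before ferrochelatase (0.53 and 0.52, adjusted p = 0.00925 and 0.0124), and Tspo, a mitochondrial porphyrin-binding protein (0.48 and 0.41, adjusted p = 0.00938 and 0.0254), and Blvrb, another biliverdin reductase, fell with WT IRE1a (-0.41, adjusted p = 0.0197).

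Of 34 tested receptors and regulators of P450 genes, 4 rose and 1 fell with WT IRE1a, and 1 rose and 0 fell with S724A IRE1a. With WT IRE1a the risers were Nr0b2, the corepressor SHP (log2 change 0.74, adjusted p = 0.0091), Cebpd, an acute-phase factor (0.72, adjusted p = 0.0117), Hnf4a (0.74, adjusted p = 0.0237) and Ahr (0.81, adjusted p = 0.0463), and Zhx2, a liver repressor, fell (-0.51, adjusted p = 0.0215). With S724A IRE1a Cebpd rose (0.75, adjusted p = 0.0115). With the block 5 regulators rose and 2 fell with WT IRE1a, and 5 rose and 0 fell with S724A IRE1a. The risers with the block were in both cases Nr0b2, Cebpd, Hnf4a, Ahr and Nr5a2, a nuclear receptor of bile acid genes, whose changes with S724A IRE1a were 0.51, 0.75, 0.53, 0.49 and 0.60 (adjusted p = 0.0388, 0.000825, 0.0113, 0.0146 and 0.00909). Rxrb, a retinoid X receptor, fell with WT IRE1a with the block (-0.34, adjusted p = 0.0257). The receptors Nr1i2 (PXR), Nr1i3 (CAR) and Ppara had changes of 0.59, 0.25 and 0.48 with WT IRE1a and -0.18, 0.02 and 1.05 with S724A IRE1a, none of which passed in either fit. None of the redox, haem and regulator genes passed between WT and S724A IRE1a or between the hairpins, with or without the block.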

How the data were processed

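Total RNA of 15 samples was measured on 15 arrays. Each array has 1 log2 signal per probe set in the deposited table, made by the authors with GCRMA, per the submitters' processing notes (version not given in the sources used here); GCRMA corrects background by probe sequence and normalises by quantiles. The scale was read from the values, which ran from 1.91 to 14.8. Of 45101 probe sets, 64 controls, 932 with several symbols and 9160 with none were left out of the gene table, 34945 were kept, and the probe set with the highest mean stood for a gene. Genes at 4 or more on at least 3 arrays were tested.

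All comparisons used R 4.3.3 and limma 3.58.1 (lmFit, eBayes, 1 model of 5 groups over 15 arrays, 10 residual degrees of freedom, two-sided moderated test), with Benjamini-Hochberg adjustment over 16294 genes and a threshold of 0.05; errors are limma's standard errors or SDs over 3 arrays. The number of arrays limits the precision. A second fit added the array number, within each arm, as a replicate block. The numbers come from the sample titles; all 12 same-number pairs within an arm deviated together (correlation 0.20 to 0.69 over all genes), so blocked values are printed where they change a call. The closest arrays correlated at 0.996. The scripts were tested on simulated data.

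The members and lists were chosen with earlier results of these data known. Genes named are Cyp2e1, a core list of P450 genes, every member past the threshold, those with the widest spread, and up to 6 passing genes of each list; other members named (Cyp4a31, Cyp4f16 and Cyp2d40 among them) were chosen after their values were seen. Alternatives were another normalisation, filter, floor, variance model or probe rule, the arrays of 1 comparison alone, and arrays left out.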

Additional observations from a re-analysis of the deposited data

Results flagged for a closer look

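A probe set outside the gene table gave a signal that separated the hairpin groups. It reads Cyp2a5 and Cyp2a4 together, the coumarin and steroid hydroxylases of the Cyp2a subfamily, and was left out of the members because it names several genes. Its log2 signals were 9.54, 9.46 and 9.49 in shIRE1a cells, against 8.48, 8.995 and 8.76 in shCON cells. All 3 shIRE1a arrays lay above all shCON arrays, with a log2 change of 0.75 that did not pass (limma adjusted p = 0.459 over all probe sets). With the IRE1a viruses its changes were -0.64 (WT IRE1a minus EGFP, adjusted p = 0.202) and -0.48 (S724A IRE1a minus EGFP, adjusted p = 0.301).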

How the results depend on the processing

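The count of P450 genes called with WT IRE1a minus EGFP, 2 as reported, became 1 with a floor at a signal of 4, 7 with the 6 arrays of the comparison alone and 8 with the replicate block, and ran from 1 to 2 when 1 array was left out. With S724A IRE1a minus EGFP, 2 as reported, it became 3 (Cyp2c38 added) with quantile normalisation, a filter at a signal of 6 or the mean of a gene's probe sets, 1 with median centring (Cyp2e1), with the floor (Cyp2c38, neither reported gene) and with trended and robust variances (Cyp2c68), 5 with the 6 arrays alone and 7 with the replicate block, and ran from 0 to 1 when 1 array was left out. WT minus S724A IRE1a stayed at 0 under every alternative run. shIRE1a minus shCON, 0 as reported, became 1 with the replicate block and stayed at 0 under the others. With the replicate block and all arrays of 1 number left out, chosen after seeing the data, the count of 8 fell to 5 in each case, the count of 7 ranged from 4 to 5, and the count of 1 ranged from 0 to 2. Cyp2e1 fell with WT IRE1a under all 16 alternatives, with adjusted p-values up to 0.0215. For single genes, 24 values passed under an alternative that had not passed as reported, 20 no longer passed, and 271 kept both side and sign; 4 uncalled values changed sign, and no called value did. Why counts moved was not tested. Signals near 4 limit what can be said of the dim members.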

Other observations

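P450 genes of other families, which make and break down sterols, bile acids, steroids, retinoids and vitamin D, had 19 tested members. Cyp51, the lanosterol demethylase of cholesterol synthesis, had signals of 8.47, 8.41 and 8.58 with WT IRE1a, 8.60, 8.57 and 8.89 with S724A IRE1a, and 9.11, 8.93 and 9.13 with EGFP. It fell with WT IRE1a (log2 change -0.57 ± 0.13 SE, limma adjusted p = 0.0118). With S724A IRE1a its change was -0.37, which passed with the replicate block (adjusted p = 0.0201) and not without it (0.0968). Cyp7b1, an oxysterol hydroxylase, fell with WT IRE1a with the replicate block (-0.41, adjusted p = 0.0434) and not without it (0.345). The bile acid genes Cyp7a1 and Cyp8b1 had changes of 0.34 and 0.57 with WT IRE1a that did not pass (adjusted p = 0.133 and 0.135).

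A probe set that reads Cyp4a10 and Cyp4a31 together, PPARA-responsive fatty acid hydroxylases, had 7.08, 6.07 and 7.59 in shIRE1a cells and 6.97, 6.03 and 7.67 in shCON cells, number 2 being the lowest in each group. In the 48-hour groups it had 8.16, 8.87 and 9.11 with WT IRE1a, 8.36, 9.40 and 8.86 with S724A IRE1a, and 8.47, 9.08 and 9.15 with EGFP, all above the 72-hour values.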
